A study of Mus musculus with 9 samples.

Results

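Loss of Suz12 was set against loss of Eed, 2 core subunits of the same Polycomb complex, in a murine leukaemia cell line, using the 3 arrays of cells with an shRNA against Suz12 and the 3 of cells with an shRNA against Eed, 6 of the 9 arrays of the series. Those arrays were chosen by their titles alone. The cells carried the MLL-AF9 fusion and NrasG12D on a B6/SJL(CD45.2) background, in the control and in both knockdowns alike. They were grown in RPMI1640 medium with serum, transduced with MSCV retrovirus carrying the shRNA in the LMN vector, and total RNA was taken at day 5. The remaining 3 arrays, of cells with an shRNA against Renilla luciferase, which mouse cells do not carry, gave levels to read each gene against. They took no part in the calls between the knockdowns, and entered that comparison only in an alternative fit, whose values are given as those with 9 arrays. All groups came from what the labels describe as 1 cell line. How many shRNA sequences stand behind each target is not given in the sources used here, so a difference between the subunits and a difference between the shRNA constructs cannot be told apart. Nothing in the labels tells separate transductions or cultures from repeat arrays, and the p-values therefore describe how these arrays vary, which can be technical variation only.

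Polycomb repressive complex 2 (PRC2) places methyl groups on lysine 27 of histone H3, a mark of silenced genes. Ezh2 or Ezh1 is the catalytic subunit, Eed binds the mark and stimulates the enzyme, and Suz12 holds the core together and carries the docking surface for accessory subunits. Neither Eed nor Suz12 is catalytic by itself. In acute myeloid leukaemia driven by an MLL fusion, PRC2 is known for holding myeloid differentiation genes and cell cycle inhibitors silent. Comparing the knockdowns with each other asks whether the subunits leave the same expression pattern behind.

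Values are log2 RMA (robust multi-array average) intensities, so a difference of 1 is a factor of 2, and 19937 genes were tested. A gene was called when its adjusted p (limma, Benjamini-Hochberg over all genes) was under 0.05, and a gene is described as separated when all 3 arrays of one group lay above all 3 of the other. Array medians lay between 6.86 and 6.95 and the median standard error (SE) of a difference was 0.05, with the number of arrays limiting the precision. Genes of a myeloid leukaemia line were at like levels in both groups. The leukaemia gene Hoxa9 was at 10.45 ± 0.08 (SD, n = 3) with Eed shRNA and 10.48 ± 0.03 with Suz12 shRNA, and the myeloid surface gene Itgam was at 12.61 ± 0.07 and 12.60 ± 0.05. The T cell gene Cd3e was at 6.81 in both, close to the array medians. The fibroblast gene Col1a1 was at 7.97 and 7.92. Without detection calls these levels do not show that a gene is absent. In a principal component analysis of the 6 arrays the first component held 30.6% of the variance, with the Eed shRNA arrays at -3.74, -0.87 and -9.15 and the Suz12 shRNA arrays at 9.65, -0.40 and 4.50. The second held 26.1% and set Suz12 shRNA replicate 2 apart at -11.7.

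Each shRNA lowered its own target and left the other subunit near the control. The Eed transcript was at 8.34, 8.56 and 8.51 on the Eed shRNA arrays, at 10.23, 9.96 and 10.05 on the Suz12 shRNA arrays and at 10.24, 10.14 and 10.27 on the control arrays. Between the knockdowns Eed differed by 1.61 (SE 0.08, 95% confidence interval 1.42 to 1.81), 3.06-fold, with an adjusted p of 0.00164 in limma. The groups did not overlap. Suz12 was at 12.04, 12.00 and 11.90 with Eed shRNA, at 10.14, 10.06 and 10.28 with Suz12 shRNA and at 12.10, 12.09 and 12.23 in the control. Its difference, Suz12 shRNA minus Eed shRNA, was -1.82 (SE 0.07, interval -1.98 to -1.66), 3.53-fold, with an adjusted p of 0.000451 in limma. Against the control, Eed was lower by a difference of -1.75 with its shRNA and Suz12 by -1.98 with its own. An exact two-sided permutation test over the 6 arrays gave p = 0.1 for each target, the smallest that 3 against 3 allows. A second, dim probe set of Eed, at 5.47 with Eed shRNA and 5.34 with Suz12 shRNA, did not follow the first and differed by -0.14, and the mean of both gave 0.74 (adjusted p 0.0102 in limma). Without Eed shRNA replicate 3 the Eed difference was 1.63 with an adjusted p of 0.0682 in limma.

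The rest of the complex did not separate the knockdowns. Of the 13 other PRC2 genes measured, 0 were called, against 0.145% of all genes, 0 had an unadjusted p under 0.05, and 0 were separated, against 10.1% of all genes. Their differences lay between -0.05 and 0.06, and the smallest adjusted p was 0.83 in limma. Ezh2, the main catalytic subunit, differed by 0.00 (SE 0.03). Ezh1, its alternative, was at 10.03 and 10.05. The accessory subunits Jarid2 (0.01), Mtf2 (-0.02), Phf19 (0.01) and Epop (-0.05), which guide the complex to its sites, and the histone-binding subunits Rbbp4 (0.02) and Rbbp7 (0.05) lay equally close.

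Beyond the targets, few genes told the knockdowns apart. At the threshold, 29 of 19937 genes were called (0.145%), 23 of them higher with Suz12 shRNA (0.115%) and 6 lower (0.0301%). With the targets set aside, 27 genes remained, and of these the olfactory receptor gene Olfr1290 is only counted. It was the 1 called gene whose group means were both no higher than 6.33, the level under which 95% of the 1027 olfactory receptor genes lay. The 26 others were 21 higher with Suz12 shRNA and 5 lower. Their sizes were modest: the smallest difference was 0.32, and 7 genes in all, targets included, were called with a difference of at least 1.5-fold (0.0351%). At an unadjusted p under 0.05 there were 1348 genes (6.76%), 625 of them higher with Suz12 shRNA (3.13%). Leaving out an array cut the calls to 4 without Eed shRNA replicate 1, 3 without replicate 2 and 1 without replicate 3, and to 2, 3 and 5 without Suz12 shRNA replicates 1, 2 and 3. All 29 kept their sign and an unadjusted p under 0.05 in all 6 of these fits. For the 26 genes, targets and Olfr1290 set aside, the differences were 0.89 to 1.10 times the full ones.

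**Figure D1:**
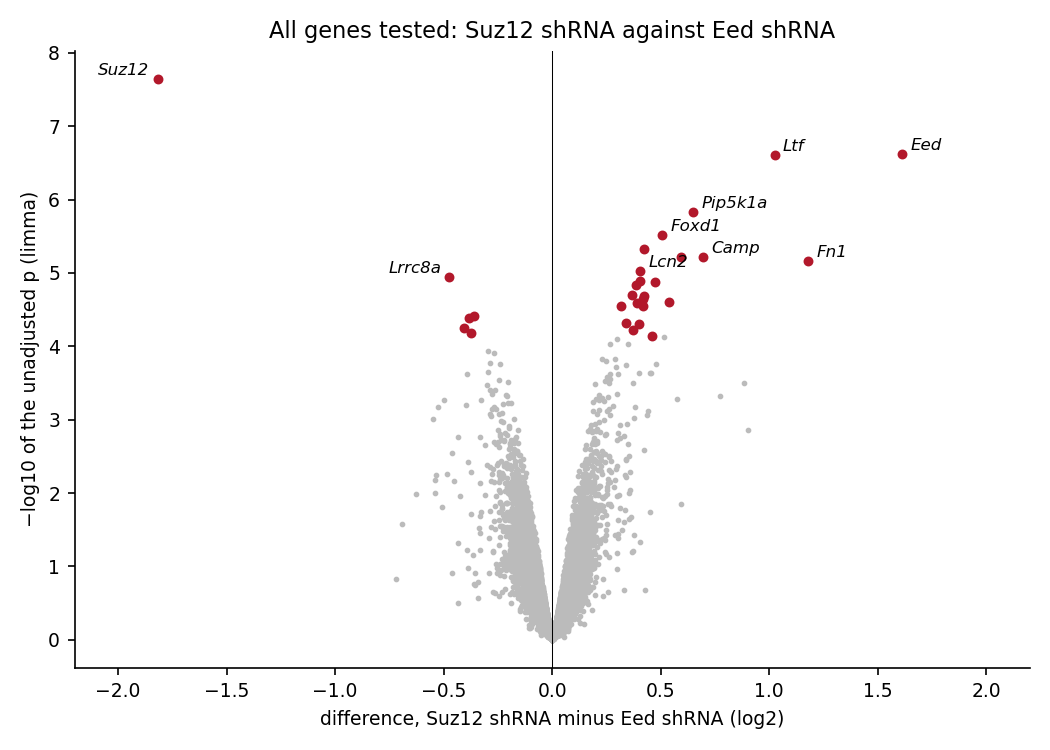
Each point is 1 of the 19937 genes, with the log2 difference (Suz12 shRNA minus Eed shRNA) across and -log10 of the unadjusted limma p upwards, and the 29 called genes are dark red. Suz12 at -1.82 and Eed at 1.61 lie farthest out, followed on the right by Fn1 and Ltf, and 23 of the 29 called genes lie to the right.

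Of the 26 genes, 5 encode cargo of neutrophil granules, and all 5 were higher with Suz12 shRNA. Neutrophil precursors make granule proteins in waves, first the azurophilic enzymes of promyelocytes, then the specific and gelatinase granule proteins of later stages. Ltf, the iron-binding lactoferrin of specific granules, was at 7.41, 7.61 and 7.51 with Eed shRNA, at 8.54, 8.51 and 8.56 with Suz12 shRNA and at 7.18, 7.33 and 7.43 in the control. The difference was 1.02 (SE 0.05, interval 0.90 to 1.15), 2.03-fold, with an adjusted p of 0.00164 in limma. All Suz12 shRNA arrays stood well above the rest, while the Eed shRNA arrays overlapped the control: against the control Ltf rose by 1.22 with Suz12 shRNA, and its value with Eed shRNA, 0.19, was not called (adjusted p 0.0689 in limma). The Ltf call was lost without Eed shRNA replicate 3 or Suz12 shRNA replicate 1, with adjusted p up to 0.0682 in limma and differences of 0.98 to 1.07 over the 6 fits.

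Camp, the antimicrobial peptide cathelicidin, showed the same order. It was at 7.97, 8.06 and 8.08 with Eed shRNA, at 8.84, 8.66 and 8.69 with Suz12 shRNA and at 7.84, 7.90 and 7.76 in the control, a difference of 0.69 (SE 0.06, interval 0.56 to 0.83) and 1.62-fold with an adjusted p of 0.0151 in limma. Ngp, a granule protein of the cathelicidin and cystatin kind, was at 11.51, 11.59 and 11.61 with Eed shRNA, at 12.19, 12.08 and 12.21 with Suz12 shRNA and at 10.55, 10.60 and 10.58 in the control. It differed by 0.59 (SE 0.05), 1.51-fold, with an adjusted p of 0.0151 in limma. Both genes were called above the control with each shRNA, and the 3 groups did not overlap for either. With Eed shRNA the rise of Camp, 0.20 (adjusted p 0.0305 in limma), was of like size to the value of Ltf that was not called. Lcn2, the siderophore-binding lipocalin of specific granules, was at 11.95, 12.00 and 11.92, then 12.35, 12.38 and 12.35, and 11.46, 11.57 and 11.38 in the control. Its difference was 0.40 (SE 0.04), 1.32-fold, adjusted p 0.019 in limma. Fcnb, a granule-stored ficolin of innate immunity that is on no list here and was singled out after its values were seen, was at 8.43, 8.44 and 8.49 with Eed shRNA and at 8.82, 8.74 and 8.82 with Suz12 shRNA. It differed by 0.34 (SE 0.04), 1.27-fold, adjusted p 0.0391 in limma. For Camp, Ngp, Lcn2 and Fcnb the call was lost in each of the 6 fits without an array.

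**Figure D2:**
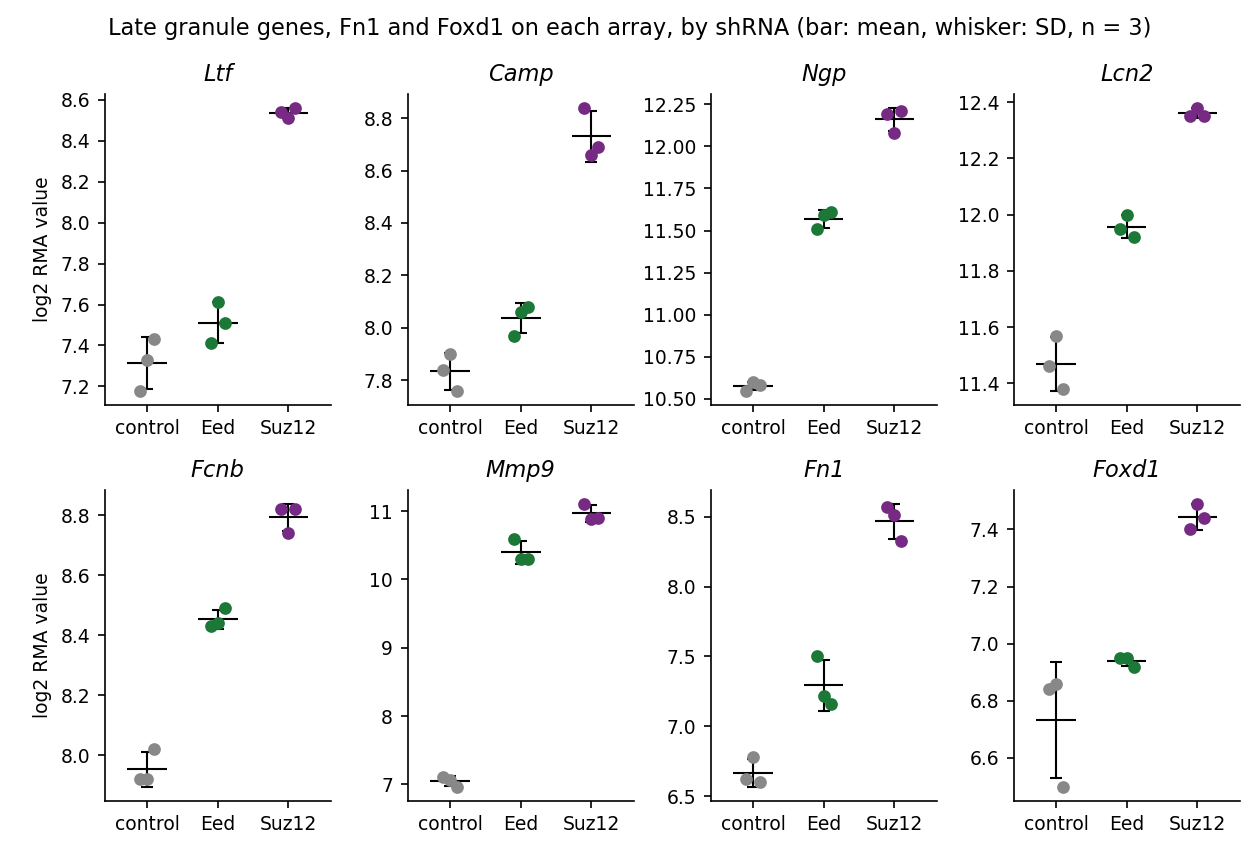
Log2 RMA values of 5 granule genes, the gelatinase gene Mmp9, Fn1 and Foxd1 on each of the 9 arrays, by shRNA, with the bar at the mean and whiskers of 1 SD (n = 3), each panel on its own scale that does not start at 0. In every panel the 3 Suz12 shRNA arrays lie above the 3 Eed shRNA arrays, and for Ltf, and for Foxd1 except 1 low control array, the Eed shRNA arrays lie close to the control.

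The late granule list as a whole leaned the same way. Of its 25 measured members 4 were called, all higher with Suz12 shRNA, against 0.115% of all genes called in that direction. A positive difference was found for 21, against 45.4% of all genes. Separated with Suz12 shRNA higher were 13 and lower 0, against 4.6% and 5.51% of all genes. The median difference was 0.14, against -0.006 over all genes. The 9 separated members that missed the threshold included Mmp9, gelatinase B, at 10.59, 10.30 and 10.30 with Eed shRNA and 11.11, 10.89 and 10.90 with Suz12 shRNA (difference 0.57, adjusted p 0.145 in limma; control 7.11, 7.07 and 6.97). The others had differences of 0.42 for Stfa2, 0.34 for Itgb2l, 0.30 for Cd177, 0.29 for S100a9, 0.25 for Arg2, 0.24 for Ly6g, 0.22 for S100a8 and 0.14 for Olfm4. Members near or under 0 were Mmp8 and Hp (-0.08 each), Pglyrp1 and Wfdc21 (-0.01 each) and Padi4 (0.00). Averaged over the list, the arrays were at 9.58, 9.64 and 9.60 with Eed shRNA, at 9.86, 9.79 and 9.87 with Suz12 shRNA and at 8.76, 8.76 and 8.77 in the control. In a bulk sample, a different share of cells of a type and a different amount of RNA per cell cannot be told apart.

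The early granule genes did not lean this way. Of 9 measured members 4 had a positive difference (44.4%, against 45.4% of all genes), and the median difference was -0.04. Among the 9, 0 were called, 0 were separated and 1 had an unadjusted p under 0.05 (lower with Suz12 shRNA). With 0.145% of all genes called and 10.1% separated, so short a list could hold 0 of either at the background shares. Mpo, Elane and Ctsg, enzymes of azurophilic granules, differed by -0.04, -0.04 and -0.06, and Prtn3 by 0.05. Cebpe, the transcription factor of the late granule stage, is also counted on this list. It was raised over the control to a like extent by both shRNAs (0.53 with Eed shRNA and 0.58 with Suz12 shRNA). Between the knockdowns Cebpe differed by 0.05 (SE 0.03, interval -0.04 to 0.13). Cebpa, which acts earlier, was lower than the control in both, by differences of -0.73 and -0.82.

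The promoters of the granule genes held fewer CG pairs than those of the other called genes that had 1 promoter in the RefSeq table. The 250 bases before the start site are shown for 3 granule genes, chosen because each holds the motif named next, and for Sp9 and Neo1 as called genes of the other kind. They come from RefSeq on the build GRCm38.p6, and are read 5′ to 3′ on the gene's strand. Capitals mark each CG and each match to TTNNGCAA, a form of the C/EBP family motif, searched on both strands. Ltf lies on the plus strand (chr9:111019042-111019291), Lcn2 and Fcnb on the minus strand (chr2:32387740-32387989 and chr2:28084879-28085128), Sp9 on the plus strand (chr2:73271676-73271925) and Neo1 on the minus strand (chr9:59036442-59036691).
Ltf: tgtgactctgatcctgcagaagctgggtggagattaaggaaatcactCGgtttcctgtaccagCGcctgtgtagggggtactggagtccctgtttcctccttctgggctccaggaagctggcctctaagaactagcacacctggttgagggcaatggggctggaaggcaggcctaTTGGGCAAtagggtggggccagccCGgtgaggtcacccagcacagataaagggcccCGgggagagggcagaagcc
Lcn2: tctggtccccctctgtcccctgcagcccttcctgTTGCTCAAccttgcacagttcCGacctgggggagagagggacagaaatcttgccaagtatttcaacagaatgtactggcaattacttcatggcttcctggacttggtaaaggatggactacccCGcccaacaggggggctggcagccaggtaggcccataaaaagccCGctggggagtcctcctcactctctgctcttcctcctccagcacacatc
Fcnb: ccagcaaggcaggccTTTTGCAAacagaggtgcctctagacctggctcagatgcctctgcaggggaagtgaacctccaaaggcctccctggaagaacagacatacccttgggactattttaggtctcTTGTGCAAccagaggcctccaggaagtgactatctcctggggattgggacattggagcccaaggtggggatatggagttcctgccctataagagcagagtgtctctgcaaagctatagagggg
Sp9: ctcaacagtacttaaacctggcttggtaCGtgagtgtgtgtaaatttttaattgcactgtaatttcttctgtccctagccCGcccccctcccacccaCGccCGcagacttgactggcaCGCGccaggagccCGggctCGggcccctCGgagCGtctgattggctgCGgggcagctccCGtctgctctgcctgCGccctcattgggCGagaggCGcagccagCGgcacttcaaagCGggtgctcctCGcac
Neo1: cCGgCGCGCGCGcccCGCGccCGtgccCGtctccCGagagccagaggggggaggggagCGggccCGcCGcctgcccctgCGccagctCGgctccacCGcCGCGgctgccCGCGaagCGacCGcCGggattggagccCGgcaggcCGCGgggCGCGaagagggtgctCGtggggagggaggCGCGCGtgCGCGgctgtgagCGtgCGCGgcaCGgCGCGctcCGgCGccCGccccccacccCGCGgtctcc
Of the 29 called genes, 21 had 1 promoter in the RefSeq table, and the rest, Fn1 among them, were not counted. Fcnb held 0 CG pairs, Camp 2, Lcn2 and Ngp 3 each and Ltf 4. Of the 21, these were the 5 with at most 5, a limit chosen after the counts were seen. The other 16, which include the targets Suz12 (37) and Eed (12), held 12 to 45, with a median of 20. Over all 12976 tested genes with 1 promoter the median was 11 and 34.4% held at most 5. The motif was found in 4 of the 5 granule genes (not in Camp) and in 1 of the other 16 (Rras2), against 8.69% of all 12976. A match describes letters in this window and does not show binding.

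Camp, Ngp and Ltf lie on chromosome 9 in the same neighbourhood. The 29 other measured genes between Camp and Ltf did not share their difference, and 0 were called in limma, against 0.145% of all genes. Their differences ran from -0.13 to 0.12 with a median of -0.04. Of the 29, 2 were separated with Suz12 shRNA higher and 1 lower, against 4.6% and 5.51% of all genes.

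Fn1, which encodes the matrix protein fibronectin, had the largest difference of any gene other than the targets. It was at 7.50, 7.22 and 7.16 with Eed shRNA, at 8.57, 8.51 and 8.33 with Suz12 shRNA and at 6.62, 6.78 and 6.60 in the control. The knockdowns differed by 1.18 (SE 0.10, interval 0.94 to 1.41), 2.26-fold, with an adjusted p of 0.0153 in limma, and no groups overlapped. Fn1 rose over the control with each shRNA, by 0.62 and by 1.80. Of the 6 fits without an array, the Fn1 call remained in the 1 without Eed shRNA replicate 1, with differences of 1.11 to 1.28. Most other matrix and adhesion genes did not follow it. Of 41 measured, Fn1 included, 11 had a positive difference (26.8%, against 45.4% of all genes), and the median was -0.053. Fn1 was the only call, against 0.145% of all genes. Separated upwards were 2, Fn1 and Mmp9 (4.88%, against 4.6% of all genes), and downwards 7 (17.1%, against 5.51%). The matrix protease Mmp19, at 10.33, 10.40 and 10.53 with Eed shRNA and 10.09, 9.91 and 10.07 with Suz12 shRNA, was among the latter (-0.40, adjusted p 0.155 in limma, 0.0497 with 9 arrays).

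The developmental regulators Foxd1 and Sp9 were called higher with Suz12 shRNA, while developmental transcription factors as a list stayed near the background. Foxd1, a forkhead factor of kidney stroma and retina, was at 6.95, 6.95 and 6.92 with Eed shRNA, at 7.40, 7.49 and 7.44 with Suz12 shRNA and at 6.84, 6.86 and 6.50 in the control. The difference was 0.51 (SE 0.04), 1.42-fold, with an adjusted p of 0.0121 in limma, or 0.0557 in the fit with the 9 arrays. Sp9, a zinc-finger factor of limb and forebrain, was at 8.50, 8.47 and 8.44 with Eed shRNA, 8.89, 9.03 and 9.09 with Suz12 shRNA and 8.11, 7.88 and 7.84 in the control, a difference of 0.54 (SE 0.05) with an adjusted p of 0.0269 in limma. For both genes the Suz12 shRNA arrays were the highest. Tbx15, a T-box factor of limb and muscle, was not called (0.51, SE 0.06, adjusted p 0.0503 in limma; 0.0197 with 9 arrays), although its arrays were separated: 5.71, 5.65 and 5.71 against 6.33, 6.18 and 6.10. Bmp2, a growth factor of bone and heart, was likewise separated and not called, at 6.35, 6.35 and 6.04 against 7.38, 7.11 and 6.89 (0.88, SE 0.13, adjusted p 0.109 in limma; 0.0278 with 9 arrays). Of 74 developmental transcription factors measured, Foxd1 alone was called, against 0.145% of all genes. A positive difference was found for 31 (41.9%, against 45.4% of all genes) and the median was -0.019. Of the 74, 4 were separated upwards (5.41%, against 4.6% of all genes) and 2 downwards (2.7%, against 5.51%). Sp9 is not on that list. The 39 Wnt, Bmp and Fgf ligands held 0 calls in limma, against 0.145% of all genes. Of the 39, 2 had an unadjusted p under 0.05, against 6.76% of all genes, and the median was -0.028. The 27 genes of the HoxB, HoxC and HoxD clusters held 0 separated members, against 10.1% of all genes. They held 0 with an unadjusted p under 0.05, against 6.76%.

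The remaining 6 named genes called above the control with both shRNAs, or with Suz12 shRNA alone, had various functions. Neo1, the netrin receptor neogenin, was at 7.34, 7.46 and 7.43 with Eed shRNA, 7.91, 7.91 and 7.84 with Suz12 shRNA and 6.75, 7.02 and 6.58 in the control (0.47, SE 0.04, adjusted p 0.0202 in limma; 0.124 with 9 arrays). B4galt6, a glycolipid galactosyltransferase, differed by 0.42 (adjusted p 0.0255 in limma; 0.123 with 9 arrays). The remaining 4 were named after their values were seen. Rras2, a small GTPase related to Ras, differed by 0.40 (adjusted p 0.0391 in limma), Tjp1, the junction scaffold ZO-1, by 0.39 (0.0206; 0.124 with 9 arrays), Zmynd11, a reader of histone H3 methylation, by 0.39 (0.0269) and Dcbld2, a transmembrane receptor, by 0.32 (0.0269). Tjp1 was at 6.59, 6.65 and 6.65 with Eed shRNA and 7.02, 6.98 and 7.05 with Suz12 shRNA, against 6.49, 6.21 and 6.54 in the control. All of these were fully separated.

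In a different set of genes the knockdowns were separated by low levels with Eed shRNA. Pip5k1a, a kinase that makes phosphatidylinositol bisphosphate, was at 9.34, 9.38 and 9.40 with Eed shRNA, at 10.08, 10.02 and 9.95 with Suz12 shRNA and at 9.95, 10.23 and 10.19 in the control. The Suz12 shRNA arrays overlapped the control and the Eed shRNA arrays lay below both. The difference was 0.65 (SE 0.04, interval 0.55 to 0.75), 1.57-fold, with an adjusted p of 0.00743 in limma, and it remained a call in 1 of the 6 fits without an array, that without Suz12 shRNA replicate 3. Against the control Pip5k1a fell by 0.75 with Eed shRNA, and its difference with Suz12 shRNA, -0.10, was not called (adjusted p 0.382 in limma).

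Sptssa, a small subunit of serine palmitoyltransferase in sphingolipid synthesis, had the same shape. It was at 7.47, 7.56 and 7.53 with Eed shRNA, 7.93, 7.89 and 7.95 with Suz12 shRNA and 8.07, 7.80 and 8.03 in the control (0.40, SE 0.04, adjusted p 0.0202 in limma; 0.0568 with 9 arrays). Kpna6, an importin alpha that carries proteins into the nucleus, was lowered by both shRNAs and more by that against Eed: 10.68, 10.69 and 10.66, then 11.13, 11.08 and 11.08, and 11.26, 11.29 and 11.27 in the control (0.42, SE 0.03, adjusted p 0.0151 in limma). Cep55, a protein of the final cut of cell division named after its values were seen, had the same order, at 9.85, 9.88 and 9.93, then 10.27, 10.26 and 10.23, and 10.54, 10.42 and 10.48 (0.37, adjusted p 0.0255 in limma). P2rx3, an ATP-gated channel also named after its values were seen, was far below the control in both. Its difference of 0.37 (adjusted p 0.0441 in limma) was 0.731 by adjusted p with 9 arrays, and its other probe set differed by 0.06.

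For a pair of genes the shRNAs went opposite ways. Leprot, an endosomal membrane protein whose gene overlaps that of the leptin receptor, was at 9.28, 9.37 and 9.29 with Eed shRNA, 9.78, 9.74 and 9.68 with Suz12 shRNA and 9.60, 9.61 and 9.56 in the control. The knockdowns differed by 0.42 (SE 0.04, adjusted p 0.0264 in limma). The 9-array fit called Leprot lower with Eed shRNA (-0.28, adjusted p 0.00101 in limma) and higher with Suz12 shRNA (0.14, adjusted p 0.0345 in limma). The array probes cannot be assigned with certainty between overlapping genes. Mthfd2l, a mitochondrial folate enzyme, was at 7.28, 7.37 and 7.37, then 7.75, 7.81 and 7.71, and 7.54, 7.43 and 7.68 in the control (0.42, SE 0.04, adjusted p 0.0269 in limma). Against the control it was called at -0.21 with Eed shRNA and 0.21 with Suz12 shRNA (adjusted p 0.033 and 0.0378 in limma). Mthfd2l was the 1 called member among 43 stress response genes, against 0.145% of all genes called.

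**Figure D3:**
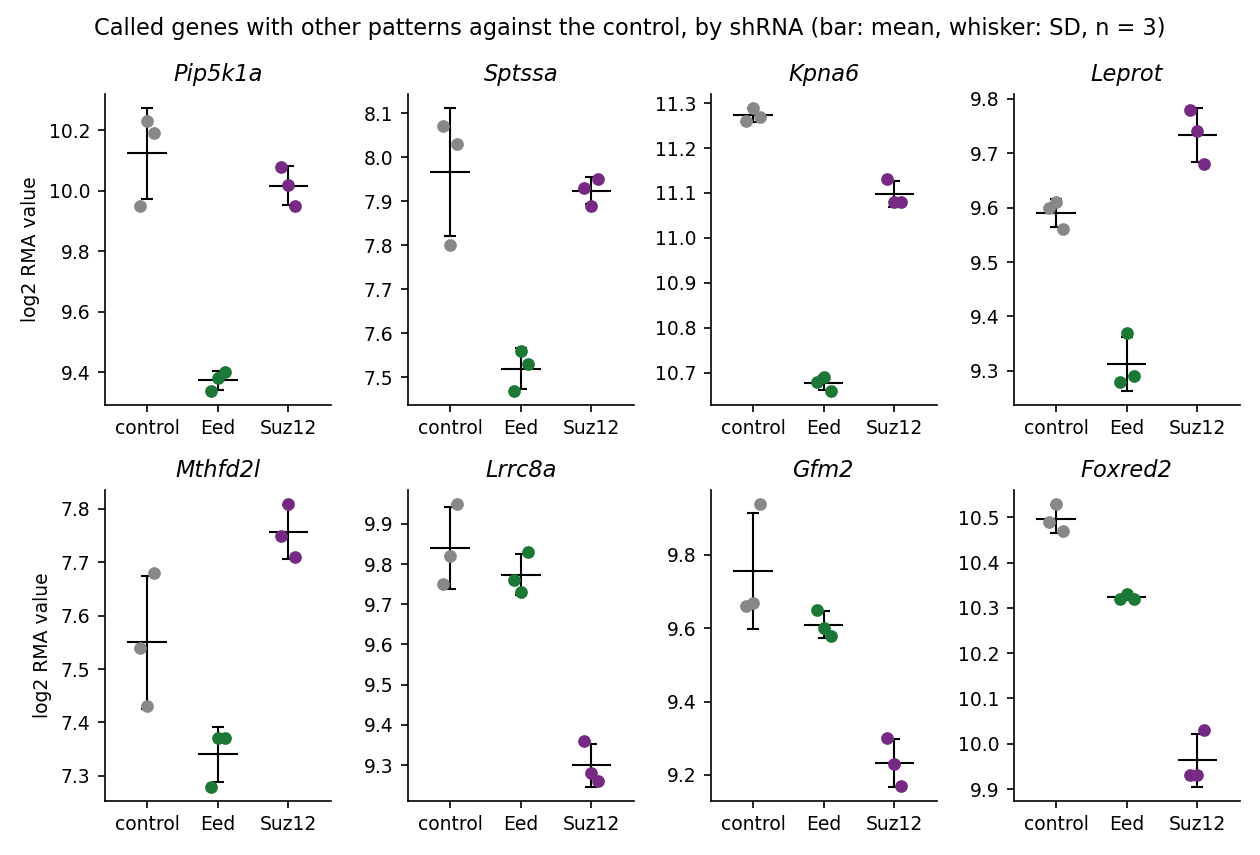
Log2 RMA values of 8 called genes that do not follow the pattern of the granule genes, on each of the 9 arrays by shRNA, with the bar at the mean and whiskers of 1 SD (n = 3), each panel on its own scale that does not start at 0. Eed shRNA arrays are the lowest for Pip5k1a, Sptssa, Kpna6, Leprot and Mthfd2l, and Suz12 shRNA arrays are the lowest for Lrrc8a, Gfm2 and Foxred2.

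Apart from Suz12 itself, the 5 called genes higher with Eed shRNA differed by at most 1.39-fold. Lrrc8a, the core subunit of the volume-regulated anion channel, was at 9.76, 9.73 and 9.83 with Eed shRNA, at 9.36, 9.28 and 9.26 with Suz12 shRNA and at 9.75, 9.82 and 9.95 in the control. It differed by -0.47 (SE 0.04) with an adjusted p of 0.0202 in limma, and the Eed shRNA arrays overlapped the control. Gfm2, a factor that recycles mitochondrial ribosomes, had a like pattern at 9.65, 9.60 and 9.58, then 9.30, 9.23 and 9.17, and 9.66, 9.67 and 9.94 (-0.37, adjusted p 0.0472 in limma; 0.122 with 9 arrays). Foxred2, an oxidoreductase of protein disposal in the endoplasmic reticulum, was lower than the control in both and lowest with Suz12 shRNA, at 10.32, 10.33 and 10.32, then 9.93, 9.93 and 10.03, and 10.49, 10.53 and 10.47 (-0.36, adjusted p 0.0354 in limma).

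The other 2 were raised over the control by both shRNAs, and more by that against Eed. Igfbp7, a secreted binding protein of insulin-like growth factors, was at 9.57, 9.47 and 9.47 with Eed shRNA, 9.12, 9.14 and 9.02 with Suz12 shRNA and 7.78, 7.68 and 7.60 in the control (-0.41, SE 0.05, adjusted p 0.0439 in limma). Ccl4, a chemokine for monocytes and T cells, was at 9.53, 9.43 and 9.49 with Eed shRNA and 9.11, 9.05 and 9.14 with Suz12 shRNA (-0.38, adjusted p 0.0356 in limma). Its control arrays spread from 7.87 to 8.98, and with 9 arrays its adjusted p was 0.877. Ccl4 was the 1 call among 35 chemokines and their receptors and the 1 call among 47 monocyte and macrophage genes. Of all genes, 0.145% were called. The next ranking leaves aside genes with small RNA, predicted, clone-like or olfactory receptor names. Among the separated genes that were not called, the imprinted gene Peg10 had the largest difference in this direction. Peg10 was at 10.09, 10.32 and 9.96 against 9.54, 9.69 and 9.57 (-0.52, SE 0.09, adjusted p 0.158 in limma). In the control it was at 7.15, 7.55 and 7.21. Cyp2d11, a cytochrome P450 (-0.49, adjusted p 0.412 in limma), Mmp19 (-0.40, described above) and Elovl2, a fatty acid elongase (-0.39, adjusted p 0.0965 in limma), followed.

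Read against the control, which both comparisons share, the 27 called genes beyond the targets fell into several patterns. Of those higher with Suz12 shRNA, 11 were called above the control with both shRNAs and 4 with Suz12 shRNA alone (Foxd1, Ltf, Tjp1 and the olfactory receptor gene). The threshold divided like values here. With Eed shRNA minus control, Ltf at 0.19, Foxd1 at 0.20 and Tjp1 at 0.22 were not called, while Camp at 0.20 and Rras2 at 0.21 were. In the same direction, 3 were called below the control in both, 2 below it with Eed shRNA alone and 2 went opposite ways. Of the 5 lower with Suz12 shRNA, 2 were above the control in both, 1 below it in both and 2 below it with Suz12 shRNA alone. The calls against the control themselves numbered 4352 genes for Eed shRNA (21.8%) and 4222 for Suz12 shRNA (21.2%).

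**Figure D4:**
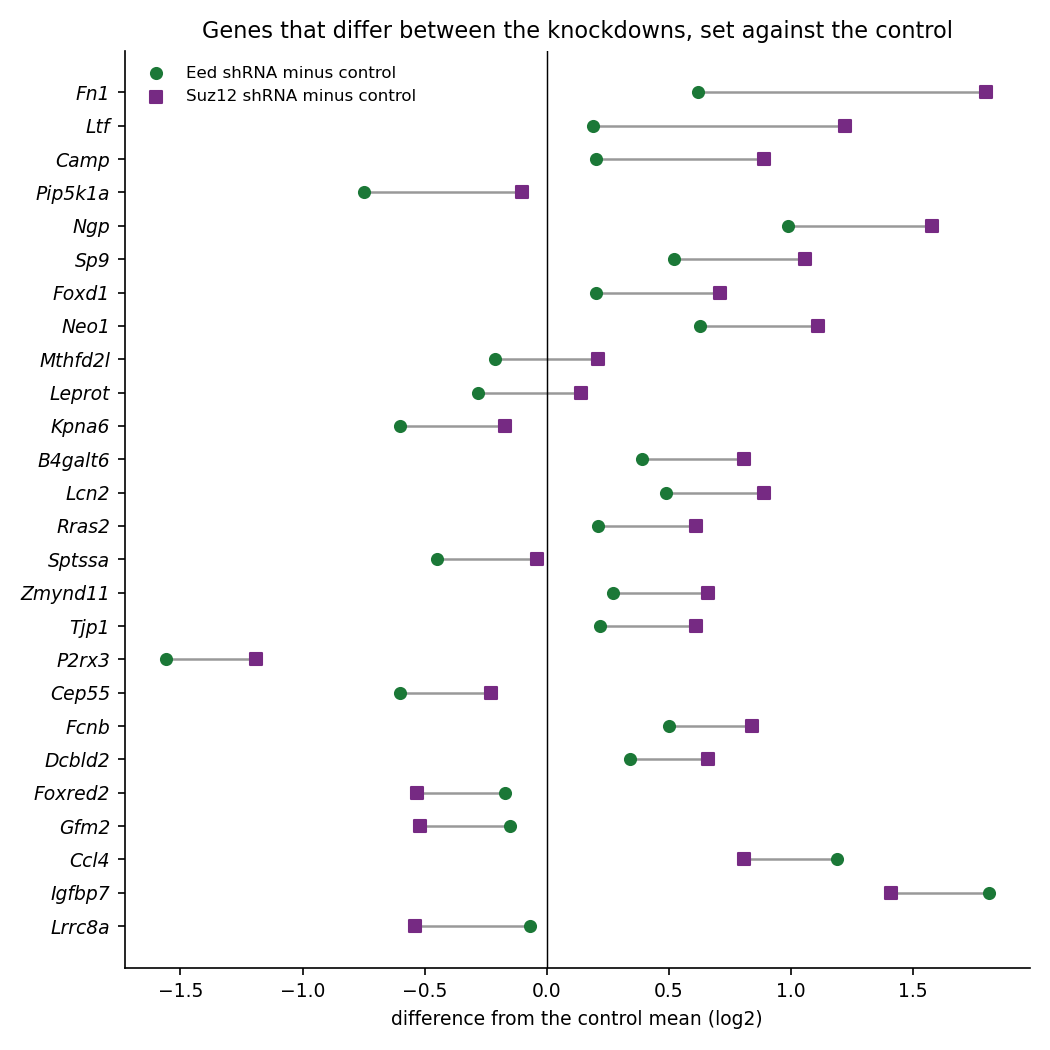
Each line is 1 of the 26 named called genes other than the targets, with its difference from the control mean (log2) for Eed shRNA (green circle) and Suz12 shRNA (purple square), ordered by the difference between the knockdowns. Granule genes, Fn1, Sp9, Foxd1 and Neo1 lie to the right of 0 with Suz12 shRNA farther out, whereas Pip5k1a, Kpna6, Sptssa and Cep55 lie to the left with Eed shRNA farther out.

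The genes raised most over the control had a median difference of 0 between the knockdowns, but more of them were separated with Suz12 shRNA higher than lower. Of 392 genes at least 1.5-fold above the control in the mean of the knockdowns, 196 were higher with Suz12 shRNA and 196 with Eed shRNA. The median difference between the knockdowns was 0.00. Of the 392, 10 were called, 8 higher and 2 lower with Suz12 shRNA, against 0.145% of all genes. Of the 392, 80 were separated upwards (20.4%, against 4.6% of all genes) and 52 downwards (13.3%, against 5.51%). Of 154 genes at least 2-fold above the control, 35 were separated upwards (22.7%) and 19 downwards (12.3%). Of 73 genes at least 1.5-fold below the control, 37 were higher with Suz12 shRNA and 36 lower, and 11 were separated upwards (15.1%) and 14 downwards (19.2%). Akr1c18, a steroid and prostaglandin reductase, shows the spread that large responders can have: 7.40, 7.60 and 7.36 with Eed shRNA, 8.70, 7.96 and 8.42 with Suz12 shRNA and 5.46, 5.32 and 5.32 in the control, a separated difference of 0.90 (SE 0.18) that was not called (adjusted p 0.236 in limma).

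Most gene lists held no called gene and had a median difference near 0. Of 46 lists, 39 held no called member and 40 had a median difference within 0.05 of 0. With 0.145% of all genes called, lists this short could hold 0 calls at the background share. The G1/S list described below, with a median of 0.046, is counted among the 40. The lists of cell division stood out for many small differences in 1 direction. Of 57 G2/M genes, which drive mitosis, 56 had a positive difference, Suz12 shRNA above Eed shRNA (98.2%, against 45.4% of all genes). The median was 0.072. Separated with Suz12 shRNA higher were 18 (31.6%, against 4.6% of all genes) and lower 0 (against 5.51%). An unadjusted p under 0.05 was found for 17, all higher with Suz12 shRNA, against 3.13% of all genes. But 0 were called, against 0.145% of all genes, and the smallest adjusted p was 0.346 in limma. In 55 of the 57 the means ran Eed shRNA, Suz12 shRNA, control from low to high. The mean of the list was 10.66, 10.64 and 10.68 on the Eed shRNA arrays, 10.77, 10.70 and 10.74 on the Suz12 shRNA arrays and 10.97, 10.89 and 11.02 on the control arrays, so the groups did not overlap. Among single members Pbk, a mitotic kinase, differed by 0.34 (adjusted p 0.421 in limma) and Tpx2, a spindle assembly factor, by 0.14 (0.412).

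Genes of DNA replication and the G1/S transition had a smaller shift. Of 47 measured, 40 had a positive difference (85.1%, against 45.4% of all genes). Separated upwards were 14 (29.8%, against 4.6% of all genes) and downwards 0 (against 5.51%). An unadjusted p under 0.05 was found for 10, against 6.76% of all genes, and the median was 0.046. The list held 0 calls, against 0.145% of all genes. The smallest adjusted p was 0.177 in limma, for Pcna, the sliding clamp of DNA polymerase. Pcna was at 13.06, 13.08 and 12.79 with Eed shRNA, 13.45, 13.42 and 13.37 with Suz12 shRNA and 12.87, 12.93 and 13.38 in the control (0.44). The list's median was 0.021 without Eed shRNA replicate 2 and 0.075 without Eed shRNA replicate 3. Of 20 cholesterol synthesis and uptake genes, 17 had a positive difference (85%, against 45.4% of all genes). Of the 20, 8 were separated upwards (40%, against 4.6% of all genes) and 0 downwards (against 5.51%). An unadjusted p under 0.05 was found for 6, against 6.76% of all genes. In limma 0 were called, against 0.145% of all genes, and the median was 0.082. Hmgcs1, which makes the precursor of mevalonate, differed by 0.26 (adjusted p 0.334 in limma). The list's mean on the Suz12 shRNA arrays, 11.02, 11.04 and 10.99, lay within the range of the control, 10.96, 11.10 and 11.01, and the Eed shRNA arrays were at 10.95, 10.95 and 10.89.

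Eosinophil genes also leaned to Suz12 shRNA. Of 9 measured, 8 had a positive difference (88.9%, against 45.4% of all genes) and 4 were separated upwards (44.4%, against 4.6%). An unadjusted p under 0.05 was found for 5, all higher with Suz12 shRNA, against 3.13% of all genes. In limma 0 were called, against 0.145% of all genes, and the median was 0.191. Prg2, the major basic protein of eosinophil granules, was at 10.70, 10.87 and 10.84 with Eed shRNA, 10.93, 11.26 and 11.30 with Suz12 shRNA and 6.29, 6.66 and 6.53 in the control (0.36, adjusted p 0.483 in limma). Alox15, a lipoxygenase, differed by 0.34 (adjusted p 0.212 in limma), Il5ra, the interleukin 5 receptor, by 0.26 (0.177) and Prg3 by 0.24 (0.328). Against a control mean of 6.49, Prg2 was higher by 4.31 with Eed shRNA and 4.67 with Suz12 shRNA, so the distance between the knockdowns was small beside the response they had in common. Among 21 mast cell and basophil genes the median was 0.001 and 0 were called in limma, against 0.145% of all genes. Of the 21, 5 had an unadjusted p under 0.05, 3 higher and 2 lower, against 6.76% of all genes.

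A class taken by gene name, beside the 46 lists, had the lowest median. Of its 55 small nucleolar and Cajal body RNA genes, 6 had a positive difference (10.9%, against 45.4% of all genes). Separated upwards were 0, against 4.6% of all genes, and downwards 18 (32.7%, against 5.51%). Called were 0, against 0.145% of all genes, and the median was -0.215. An unadjusted p under 0.05 was found for 19, all lower with Suz12 shRNA, against 6.76% of all genes in either direction. Suz12 shRNA replicate 2 moved with this result: the class mean was 8.65 on that array against 8.94 and 9.06 on its partners, 9.09, 9.15 and 9.15 on the Eed shRNA arrays and 8.92, 9.36 and 9.09 on the control arrays, and the median was -0.117 without it. The part of RNA quality or labelling in this was not tested. Of 53 cytosolic ribosomal protein genes 8 were separated downwards (15.1%, against 5.51% of all genes) and 0 upwards (against 4.6%), with a median of -0.022. Of 28 RAS-ERK feedback genes, which report signalling through RAS, 5 had a positive difference (17.9%, against 45.4% of all genes). In that list 1 was separated upwards (3.57%, against 4.6% of all genes) and 5 downwards (17.9%, against 5.51%), and the median was -0.037. The CDK inhibitor Cdkn2a, a well-known PRC2 target, was at 8.86 with Eed shRNA and 8.66 with Suz12 shRNA (-0.21, adjusted p 0.361 in limma). Genes of the RNA interference pathway, which every shRNA uses, held 0 calls in limma among 13, against 0.145% of all genes. Of the 13, 2 had an unadjusted p under 0.05, against 6.76% of all genes, and the median was 0.017. The 41 interferon-stimulated genes held 0 calls, with 4 at an unadjusted p under 0.05 and a median of 0.004. Lists this short could hold 0 calls at the background share.

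**Figure D5:**
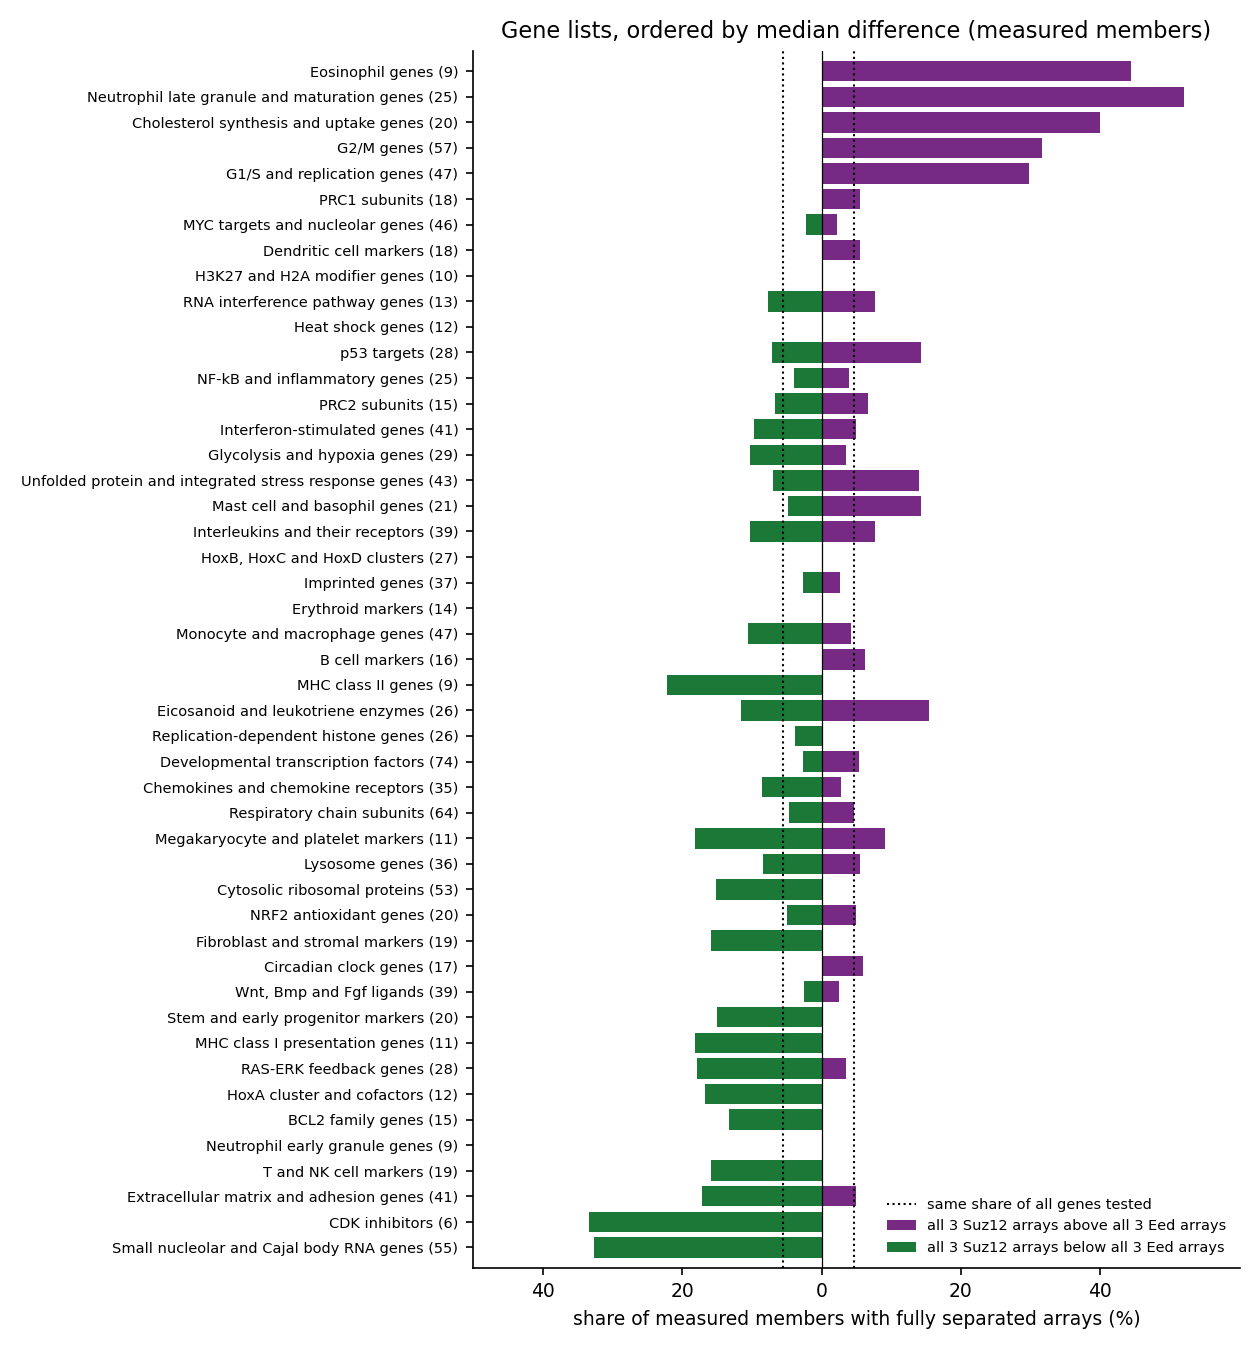
For each of the 46 gene lists and the small nucleolar RNA class, 47 in all (measured members in parentheses), ordered by median difference, bars give the share of members whose 3 Suz12 shRNA arrays all lay above the 3 Eed shRNA arrays (right, purple) or all below (left, green), and dotted lines mark the same shares of all genes, 4.6% and 5.51%. Eosinophil, late granule, cholesterol, G2/M and G1/S lists have the highest medians and bars to the right alone, and the small nucleolar RNA class has 1 of the longest bars to the left.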

How the data were processed

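Total RNA on Affymetrix arrays was processed by the authors: the deposited values are log2 values from RMA, per the submitters' processing notes (the version of RMA is not given in the sources used here). Log2 values from 3.38 to 14.46 bear that unit out, and they carry no detection call. Replicate numbers from the titles did not pair the arrays: deviations of same-numbered arrays from their group means correlated at 0.04, -0.17 and -0.04.

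Of 34760 probe sets, 21640 carried 1 gene symbol in the platform annotation and were used, 1321 carried several and 11799 were unnamed here. By gene number, 21553 matched the GRCm38.p6 gene table, and 0 symbols were replaced. For the 954 genes with more than 1 probe set, that with the highest mean over the 9 arrays was taken, leaving 19937 genes, with no filter on low values. limma 3.58.1 in R 4.3.3 (lmFit, eBayes) was fitted to the 6 knockdown arrays (4 residual and 2.98 prior degrees of freedom), two-sided, with Benjamini-Hochberg adjustment. Values against the control come from the same model on all 9 arrays. The code was tested on simulated data.

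Named were the targets, all PRC2 genes and the 15 largest called and separated genes in each direction. Where fewer passed, separated genes that were not called filled the direction up to 10. From each list, up to 4 members by smallest adjusted p were named. Genes with small RNA, predicted, clone-like or olfactory receptor names, 2717 of those tested, were left out of this naming. Other named genes were picked after their values were seen, and so were the members of the late and early granule lists beyond those 4. The comparison, the members and the 46 lists, with a class of small nucleolar RNAs taken by name, were chosen with earlier results of these data known. Alternatives were other scalings, probe set rules, a filter on dim genes, the variance prior, 9 arrays, a replicate block and leaving out each array.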

Additional observations from a re-analysis of the deposited data

How the results depend on the processing

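The 29 calls became 48 after quantile normalization and 50 after cyclic loess, and all 29 were among them in both. They became 3 when every probe set was tested on its own (Benjamini-Hochberg over 34760), 4 with the replicate number as a block (Eed, Suz12, Fn1 and Ltf), 7 with a minimum of 1.5-fold and 50 at an adjusted p under 0.10. The numbers do not pair the arrays, so calls lost under the block are not read as weaker effects. Leaving out 1 array gave 1 to 5 calls, with fewer arrays left to estimate the spread. The other settings gave 25 to 41, and with all 9 arrays 35, of which 21 were shared. The difference of Eed ran from 1.54 to 1.67 without 1 array, and lost its call at 1.63 without Eed shRNA replicate 3. It was 0.74 with the mean of its probe sets, still called, and turned to -0.14 with the lowest probe set of each gene, a dim one for Eed. Suz12 ran from -1.88 to -1.77 and stayed called. Of the 26 other named calls, 8 missed the threshold with 9 arrays (Foxd1, Neo1, B4galt6, Sptssa, Ccl4, Gfm2, P2rx3 and Tjp1), and 23 in all 6 fits without an array. With 3 arrays a group, differences near the median standard error of 0.05 cannot be resolved, and genes near the dim end of the arrays have no detection call.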
